A study of Caenorhabditis elegans with 8 samples.

Results

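The effect of the hel-1 mutation that is shared by 2 genetic backgrounds of Caenorhabditis elegans was measured by RNA-seq of whole worms. The 4 libraries of strains that carry hel-1(gk148684) were compared with the 4 libraries of strains that do not, with the daf-2 genotype as an additive term, so that all 8 of the 8 libraries of the series entered the comparison. The libraries with the mutation were 2 of strain IJ501, hel-1(gk148684), and 2 of strain IJ1121, hel-1(gk148684); daf-2(e1370). The libraries without it were 2 of the wild-type strain N2 and 2 of strain CF1041, daf-2(e1370). All worms were day 1 adults from bleach-synchronised eggs of strains kept at 20 °C, and no further treatment is named. hel-1 worms were thus set against wild type, which is called the wild-type background here, and hel-1;daf-2 worms against daf-2 worms, the daf-2 background. These backgrounds have no library in common. Each mutant genotype was 1 strain, so what else differs between strains cannot be told apart from the mutation. The labels describe the 2 libraries of a genotype as independent biological repeats.

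hel-1 encodes a DEAD-box RNA helicase of the family of human DDX39 and UAP56, proteins that act in splicing and in the export of mRNA from the nucleus. daf-2 encodes the insulin/IGF-1 receptor of the worm. Lower DAF-2 activity lets the FOXO transcription factor DAF-16 enter the nucleus, where it switches on genes of stress resistance, metabolism and long life, and the title of the series places HEL-1 in this pathway. A question put to the common effect is therefore which transcripts depend on HEL-1 whether or not the receptor is weakened.

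The libraries held between 31560000 and 37550000 expected counts (rounded), and 13722 of 46904 genes passed a filter on low counts and were tested. Levels below are in CPM (counts scaled to the size of the library), and effects are log2 fold changes ± their standard error (SE), positive where hel-1 libraries were higher. hel-1 itself had 618 and 601 CPM in wild type, 565 and 526 in hel-1, 547 and 468 in daf-2, and 535 and 526 in hel-1;daf-2. Its ranges overlapped in the daf-2 background and the common effect was -0.05 ± 0.08. The labels do not say what kind of lesion gk148684 is, so the level of this transcript does not check them. daf-2 (-0.03 ± 0.06) and daf-16 (0.00 ± 0.07) also had levels that overlapped in at least 1 background. Of the marker genes in the files, 21 of 21 for intestine, 26 of 26 for hypodermis and 28 of 28 for body wall muscle passed the filter. So did 45 of 45 for oocytes and germline, 14 of 18 for pharynx, 32 of 38 for neurons and 60 of 69 for sperm. The daf-2 libraries differed from each other more than those of the other genotypes: the standard deviation of their log2 difference over tested genes was 0.709, against 0.518 in wild type, 0.398 in the double mutant and 0.395 in hel-1. The median log2 difference of sperm markers, replicate 2 minus replicate 1, was 1.66 in daf-2 and -1.90 in wild type. In bulk RNA of whole worms, fewer cells of a type and less RNA per cell cannot be told apart.

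No gene passed the test of the common effect. With edgeR's quasi-likelihood test and a Benjamini-Hochberg adjusted p of 0.05, 0 genes were higher and 0 lower (0% of 13722), and each of the 8 fits that left out 1 library also gave 0 and 0. At an unadjusted p under 0.05 there were 180 genes higher (1.31%) and 145 lower (1.06%), together 2.37% of those tested. limma voom gave 0 in either direction as well. DESeq2, with the same additive design, gave 2 higher and 5 lower. A fit of the 4 genotype means, in which the common effect is the mean of the effects in both backgrounds, gave 7 higher and 3 lower. The additive model carries any difference between backgrounds in its residual spread: the common biological coefficient of variation was 0.237 there and 0.168 in the fit of genotype means.

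The backgrounds mostly went opposite ways. Only 2957 genes (21.5%) had the same sign in both, and over the 13722 genes the 2 effects had Pearson's r = -0.42 and Spearman's rho = -0.55. This is a description across genes, which are not independent, and it rests on 2 libraries on each side. The share with the same sign was 28.3% among genes under 1 CPM, 23.8% from 1 to 10 CPM, 19.1% from 10 to 100 CPM and 12.5% at 100 CPM or more. With 1 library left out the share was at its lowest, 19.5% (r = -0.48), without wild type replicate 1. Without daf-2 replicate 2 the share was 36.97% (r = -0.15), and without wild type replicate 2 it was 30.8% (r = -0.23).

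**Figure D1:**
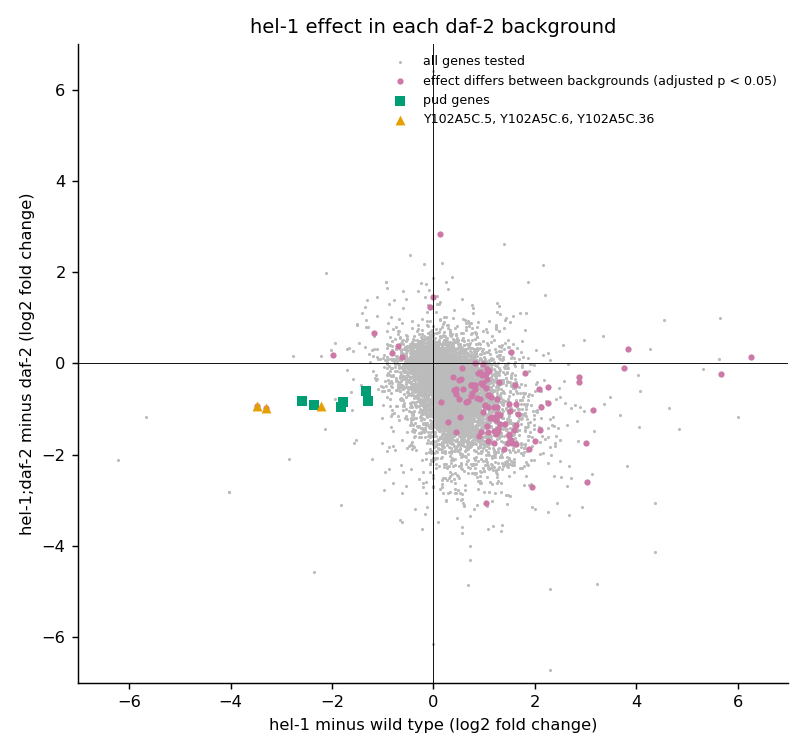
Log2 fold change of each tested gene in hel-1 against wild type (horizontal axis) and in the double mutant relative to daf-2 (vertical axis). Grey points are the 13722 tested genes, of which 6 lie outside the axes, pink points are genes whose effect differed between backgrounds, squares are the pud genes and triangles are Y102A5C.5, Y102A5C.6 and Y102A5C.36. Most pink points lie right of 0 and below it, and the squares and triangles lie at the lower left, with negative values in both backgrounds.

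A stricter view counts genes whose hel-1 libraries did not overlap the libraries without the mutation in either background. In the same direction, 274 genes were higher (2%) and 209 were lower (1.52%). In opposite directions, 2051 genes (14.9%) were higher in hel-1 than in wild type and lower in hel-1;daf-2 than in daf-2, and 1922 (14%) were the reverse. Of the genes with a shared direction, 184 higher and 97 lower reached 5 CPM, and 68 and 48 of these also had an unadjusted p under 0.05. The genes described next are the 12 per direction with the largest common effect among those 68 and 48, with the genes that DESeq2 passed. They were chosen by these same values, so the numbers describe them and test nothing, and every one of them had an edgeR adjusted p of 1.00 for the common effect.

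A group of neighbouring genes with a shared direction was the pud family, whose name stands for protein up-regulated in daf-2. The 6 tested pud genes sit side by side on chromosome V between 2322038 and 2330930 (WBcel235), and all 6 had negative values in both backgrounds. Together they held 1458 and 1327 CPM in wild type and 308 and 557 in hel-1, then 1798 and 2765 in daf-2 and 889 and 1668 in hel-1;daf-2. The summed level of both hel-1 libraries lay below both control libraries in each background, 3.22-fold lower in the wild-type background and 1.78-fold lower in the daf-2 background by the means of 2 libraries. In the wild-type background the spread was small beside the gap (1393 ± 92.7 against 433 ± 176 CPM, SD, n = 2). In the daf-2 background it was not (2282 ± 684 against 1279 ± 551 CPM, SD, n = 2).

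By gene, pud-3 had 159 and 136 CPM in wild type, 21.4 and 36.6 in hel-1, 278 and 416 in daf-2, and 121 and 245 in hel-1;daf-2, a common effect of -1.62 ± 0.37. pud-4 had 52.2 and 39.2 CPM, then 4.64 and 10.8, 86.5 and 127, and 41.1 and 80.3 in the same order, with -1.64 ± 0.44. Both genes were lowest in hel-1 and highest in daf-2, with no overlap in either background. pud-1.2 (-1.39 ± 0.30), F15E11.14 (-1.30 ± 0.30) and pud-1.1 (-1.05 ± 0.25) showed the same order without overlap. F15E11.1 (-0.96 ± 0.58) overlapped in the daf-2 background, where daf-2 had 249 and 424 CPM and hel-1;daf-2 165 and 277. With any 1 library left out, the common effect of pud-3 stayed between -2.0 and -1.32 and that of pud-1.1 between -1.33 and -0.88. DESeq2 passed pud-1.1 (adjusted p = 0.00419) and not the other 5. Several of these genes are near-identical copies (the annotation gives F15E11.14 and F15E11.1 the same symbol, pud-2.2), so the split of counts among them is uncertain and the sum is the safer value. Their neighbours within 20 kb did not share the pattern: Y19D10B.6 stood at 0.60 in the wild-type and -0.76 in the daf-2 background, and Y19D10A.7 at -0.10 and 1.28.

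**Figure D2:**
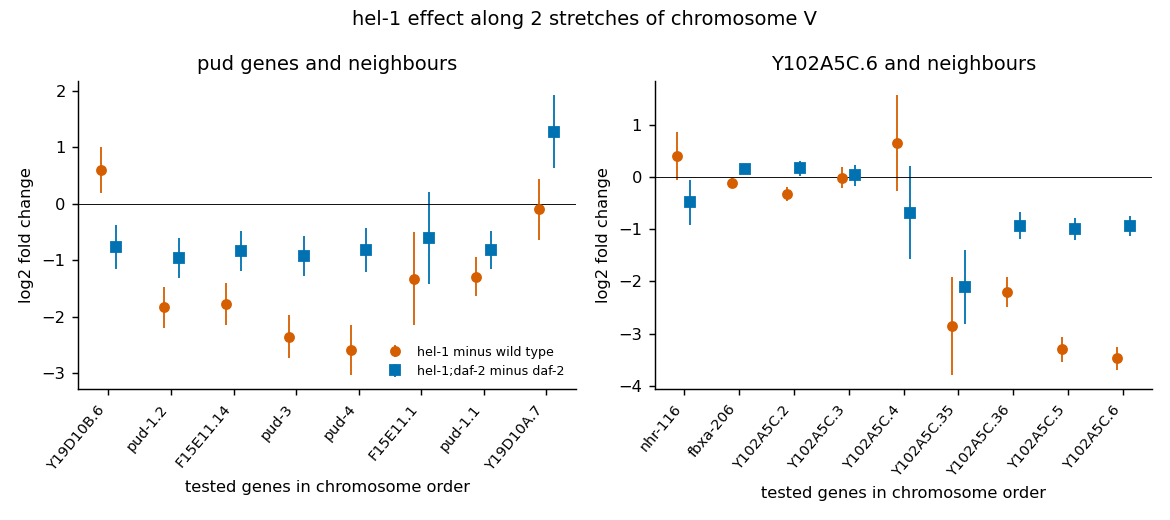
Log2 fold change of hel-1 against wild type (circles) and of the double mutant against daf-2 (squares), with standard errors, for tested genes in chromosome order within 20 kb of the pud genes (left) and of Y102A5C.6 (right) on chromosome V. The 6 pud genes and the 4 rightmost genes of the other stretch are below 0 in both backgrounds.

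A further stretch of chromosome V, from 16924985 to 16930063, held 4 neighbouring genes that were lower in both backgrounds without overlap. They are the pseudogenes Y102A5C.35, Y102A5C.5 and Y102A5C.6 and the protein-coding gene Y102A5C.36. Y102A5C.6 had 37.96 and 39.96 CPM in wild type, 3.95 and 3.02 in hel-1, 38.6 and 26.2 in daf-2, and 15.1 and 18.8 in hel-1;daf-2. Y102A5C.5 had 22.9 and 25.4, 2.55 and 2.34, 24.8 and 16.98, and 8.78 and 12.26 CPM in the same order. Levels without the mutation were alike in wild type and daf-2, while the loss was deeper in the wild-type background. There Y102A5C.6 (-3.47 ± 0.22, adjusted p = 0.000852) and Y102A5C.5 (-3.30 ± 0.24, adjusted p = 0.00177) fell, also in all 8 fits with 1 library left out. In the daf-2 background they stood at -0.93 ± 0.20 and -0.99 ± 0.21 and did not pass (adjusted p = 0.213 and 0.226). The effect differed between the backgrounds for both (difference 2.54 ± 0.29, adjusted p = 0.0184, and 2.31 ± 0.32, adjusted p = 0.0262). These differences did not pass with either wild-type, either hel-1;daf-2 or the second hel-1 library left out, nor, for Y102A5C.5, without the first hel-1 library.

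Y102A5C.36, next to them, had 4.01 and 4.81 CPM in wild type, 0.82 and 1.09 in hel-1, 7.76 and 7.58 in daf-2, and 3.07 and 4.99 in hel-1;daf-2. It fell in the wild-type background (-2.21 ± 0.29, adjusted p = 0.0289; not passed with any 1 wild-type or hel-1 library left out), and DESeq2 passed its common effect (-1.52, adjusted p = 0.00419). Y102A5C.35 was below 1 CPM in every library. The 5 other tested genes within 20 kb of Y102A5C.6 did not share the direction: Y102A5C.3 stood at -0.01 and 0.04, fbxa-206 at -0.12 and 0.16, Y102A5C.2 at -0.31 and 0.17, Y102A5C.4 at 0.66 and -0.68 and nhr-116 at 0.41 and -0.48. Since 3 of the 4 genes of the stretch are pseudogenes, reads of a related gene could be assigned to them, which was not tested. On chromosome V as a whole, 91 of 2567 tested genes (3.54%) had an unadjusted p under 0.05 for the common effect, against 1.64% to 2.70% on the other nuclear chromosomes. Around the mutated gene itself, which lies at 8326852 to 8328870 on chromosome II, 0 of 37 genes within 100 kb and 2 of 207 within 500 kb did so by this unadjusted edgeR p. Counted instead by a shared direction without overlap, chromosome V did not stand out. Its share was 3.82%, against 4.51% on chromosome X and 3.13% to 3.37% on the others. Around hel-1 these genes numbered 1 of 37 and 8 of 207. By DESeq2 and by the fit of genotype means no gene passed within either distance of hel-1.

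egl-9 showed a small shared decrease with little spread between libraries. This gene encodes the prolyl hydroxylase that marks the hypoxia factor HIF-1 for destruction when oxygen is present. It had 18.1 and 17.2 CPM in wild type, 13.7 and 13.2 in hel-1, 17.7 and 18.5 in daf-2, and 11.6 and 10.8 in hel-1;daf-2. All 4 libraries with the mutation lay below all 4 without it, 1.46-fold lower in common (-0.54 ± 0.09), 1.31-fold in the wild-type and 1.62-fold in the daf-2 background. The value kept between -0.58 and -0.49 with any 1 library left out. DESeq2 passed it (adjusted p = 0.0265), and edgeR did not in either background (adjusted p = 0.194 and 0.113).

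Other genes lower in both backgrounds had different baselines. col-135, a cuticle collagen, went from 16.25 and 11.6 CPM to 9.23 and 7.29 in the wild-type background and from 7.03 and 12.9 to 2.80 and 2.57 in the daf-2 background (-1.31 ± 0.30; DESeq2 adjusted p = 0.00419). asns-2, an asparagine synthetase, went from 49.9 and 30.6 to 29.7 and 29.5 CPM and from 96.7 and 101.7 to 37.8 and 56.6 CPM (-0.76 ± 0.20), so that its gap was wide in the daf-2 background and narrow in the other. ttr-44, a transthyretin-like gene and a member of the DAF-16-activated list, went from 8.49 and 5.87 to 3.74 and 5.52 CPM and from 33.0 and 27.2 to 16.98 and 18.6 CPM (-0.70 ± 0.16). Its level was higher in daf-2 than in wild type, and the hel-1 effect was nearly the same in both (-0.64 and -0.76). tcl-2 went from 14.5 and 14.03 to 5.91 and 7.39 CPM and from 7.03 and 8.08 to 6.13 and 5.71 CPM (-0.73 ± 0.18).

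spp-9, a saposin-like gene of the family of antimicrobial caenopores, had 2.87 and 5.34 CPM in daf-2 and 0.06 and 0.28 CPM in hel-1;daf-2. In the wild-type background it was not expressed at a measurable level, with 1 count over both wild-type libraries and 0 over both hel-1 libraries. Its common value (-4.50 ± 0.66; DESeq2 adjusted p = 0.00322) therefore came from the daf-2 background (-4.57 ± 0.69), where edgeR did not pass it (adjusted p = 0.126).

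Genes higher in both backgrounds lay on 5 chromosomes and had common effects of 0.49 to 1.09. bath-1, a gene of the BATH domain family, had 7.12 and 7.79 CPM in wild type, 12.7 and 12.25 in hel-1, 12.17 and 11.1 in daf-2, and 14.9 and 14.5 in hel-1;daf-2 (0.54 ± 0.12, 1.45-fold higher). All 4 libraries with the mutation were higher than all 4 without it. clec-265, a C-type lectin gene, had 15.2 and 19.9, then 21.8 and 33.4, 6.59 and 7.90, and 10.8 and 15.9 CPM in the same order (0.76 ± 0.19). Its increase was of like size in the wild-type (0.65 ± 0.25) and the daf-2 background (0.88 ± 0.27). Further members had positive effects in both backgrounds, each larger in the wild-type background, namely Y48A6B.7 (0.67 and 0.43), the saposin-like gene spp-18 (0.97 and 0.48), the cystathionine gamma-lyase gene cth-1 (0.75 and 0.35), K08D8.5 (0.73 and 0.28) and the nuclear hormone receptor gene nhr-8 (0.92 and 0.35).

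**Figure D3:**
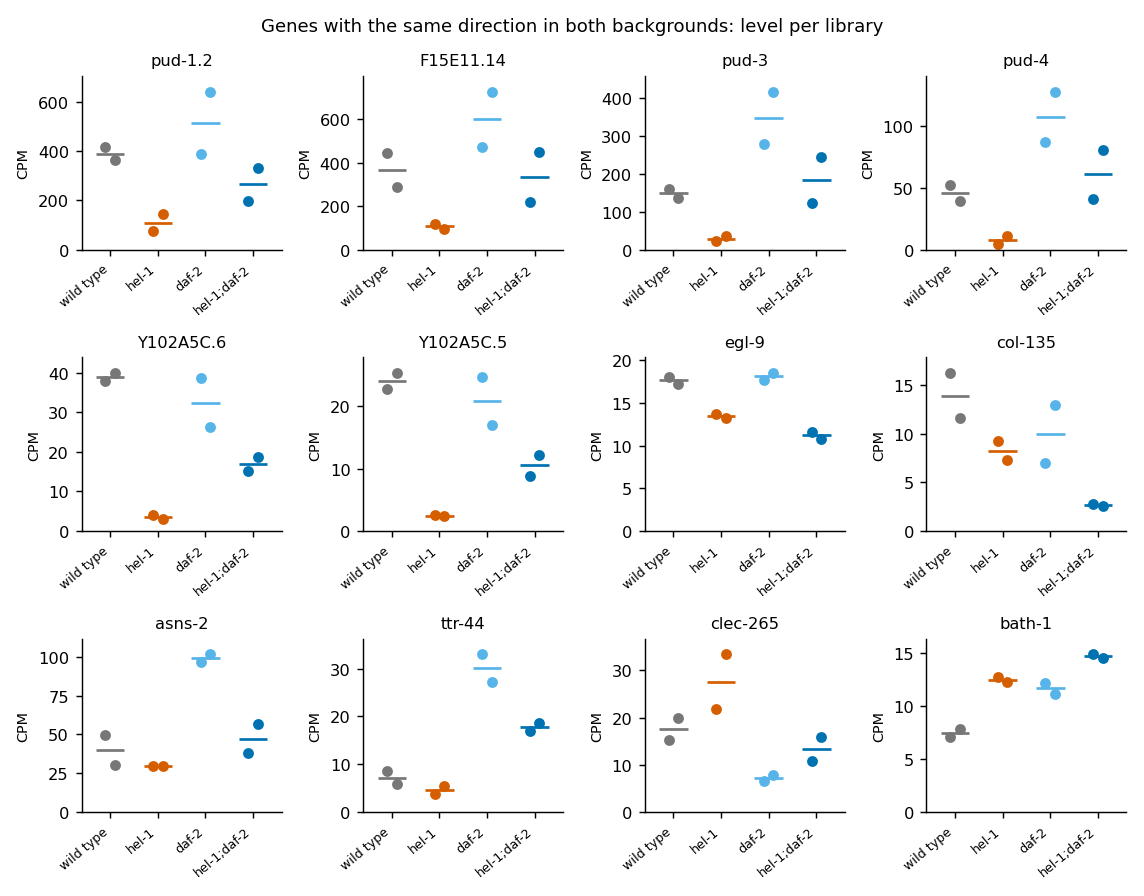
Level in CPM of 12 genes whose hel-1 libraries lay on the same side of the control libraries in both backgrounds. Each point is 1 library, each line the mean of 2 libraries, and every vertical axis starts at 0. In 10 panels the mutant libraries are lower, and in clec-265 and bath-1 they are higher.

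In the remaining genes of this group the common value came mainly from the wild-type background. fbxa-192, an F-box gene, rose from 8.34 and 8.32 to 25.5 and 22.6 CPM in the wild-type background (1.53 ± 0.13, adjusted p = 0.00341; not passed without either wild-type library). It had 9.65 and 8.53 CPM in daf-2 and 10.1 and 11.35 in hel-1;daf-2 (0.24 ± 0.13). ckb-2, a choline kinase gene, had 11.2 and 16.21 CPM in wild type and 31.95 and 35.9 in hel-1, but between 8.15 and 8.87 CPM in all 4 libraries of the daf-2 background. dyf-3, a gene of cilium formation, had 0.67 and 0.71 CPM in wild type and between 2.43 and 5.50 CPM in the other 6 libraries. chca-1 had 8.78 and 9.81 CPM in wild type, 14.7 and 17.6 in hel-1, and between 3.27 and 4.06 CPM in the daf-2 background. R05H10.7 was the reverse case, with at most 0.16 CPM in the wild-type background, 14.4 and 15.96 CPM in daf-2 and 32.9 and 17.8 CPM in hel-1;daf-2. The genes that DESeq2 passed as higher, F54E2.1 (wild-type background 1.21, daf-2 background 0.32) and C17H12.8 (1.48 and 0.52), overlapped in the daf-2 background. F54E2.1 had 23.4 and 27.2 CPM in daf-2 and 26.4 and 36.8 in hel-1;daf-2.

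Of the 10 genes passed by the fit of genotype means, all 10 also differed between the backgrounds, and 5 had the same sign in both. lin-59, a relative of the histone methyltransferase ASH1, had 53.9 and 56.7 CPM in wild type, 108 and 109 in hel-1, 58.3 and 56.9 in daf-2, and 57.2 and 56.1 in hel-1;daf-2. The 2 hel-1 libraries stood apart from the other 6, which lay between 53.9 and 58.3 CPM. F02E9.10 had the mirror image, with 16.99 and 17.6 CPM in hel-1 and between 58.5 and 68.9 CPM in the other 6 libraries. warf-1, an ARF-type GTPase gene, had 37.8 and 41.2 CPM in hel-1 and at most 0.93 CPM elsewhere, and Y41C4A.32 had 201 and 214 CPM in hel-1 and at most 4.01 CPM elsewhere. The exons of warf-1 overlap those of nep-16 on the other strand, and without strand their reads cannot be told apart.

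In other genes a different genotype stood apart. ech-7, an enoyl-CoA hydratase gene, had 40.03 and 39.0 CPM in wild type and between 65.8 and 75.3 CPM in the other 6 libraries, and F22B8.7 had 0.61 and 0.78 CPM in wild type and between 8.32 and 16.95 CPM in the others. sax-2, a relative of Furry that shapes neurites, had 64.9 and 58.0 CPM in daf-2 and between 157 and 185 CPM in the others. So the value of sax-2 in hel-1;daf-2 was that of wild type, and it rose against daf-2 by 1.45 ± 0.11 (adjusted p = 0.0142; not passed with any 1 hel-1 or hel-1;daf-2 library left out). F13H8.8 had 7.24 and 11.3 CPM in hel-1;daf-2 and between 1.15 and 1.72 CPM elsewhere.

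The test of the difference between backgrounds passed 113 genes (0.823%). Of these, 103 (0.751%) had the more positive effect in the wild-type background and 10 (0.0729%) in the daf-2 background. In 99 the hel-1 effect was positive in the wild-type and negative in the daf-2 background, in 7 it was the reverse, and in 7 the signs agreed. In 96 of the 113 the libraries did not overlap in either background and went opposite ways. The 113 were chosen by their difference in these same libraries, so their signs and lack of overlap describe them and test nothing. Over all 13722 tested genes, 3973 did not overlap and went opposite ways, and 21.5% had the same sign in both. Within the wild-type background 50 genes rose (0.364%) and 7 fell (0.051%), and within the daf-2 background 2 rose (0.0146%) and 5 fell (0.0364%). These counts depended on single libraries. For the difference, 3141 genes had the more positive effect in the wild-type and 3523 in the daf-2 background without daf-2 replicate 1, so that the excess on the wild-type side was no longer there. Without wild type replicate 2 they numbered 6 and 1. With 1 library left out, genes rising in the wild-type background numbered from 6, without wild type replicate 1, to 411, without daf-2 replicate 2.

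Only sqst-1 and nlp-20 passed in both backgrounds, and each did so in opposite directions. sqst-1 encodes the worm relative of p62, an adaptor that brings cargo to autophagosomes. It had 23.95 and 24.7 CPM in wild type, 52.7 and 59.3 in hel-1, 54.3 and 63.6 in daf-2, and 30.2 and 30.9 in hel-1;daf-2. Each single mutant had higher levels than wild type and than the double mutant, with no overlap. The effect was 1.2 ± 0.10 (adjusted p = 0.00258) in the wild-type and -0.95 ± 0.10 (adjusted p = 0.0269) in the daf-2 background, and the difference was -2.15 ± 0.14 (adjusted p = 0.00137). nlp-20, a neuropeptide gene, had 4.71 and 4.47, then 12.9 and 12.9, 7.28 and 7.40, and 2.64 and 2.26 CPM, with a difference of -3.07 ± 0.22 (adjusted p = 0.00244). Both differences passed in all 8 fits with 1 library left out. Within the daf-2 background neither gene passed with any 1 library other than those of daf-2 left out, nor nlp-20 without daf-2 replicate 2. Within the wild-type background sqst-1 did not pass without wild type replicate 1, nor nlp-20 without any 1 wild-type or hel-1 library.

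Of the fatty acid desaturase genes fat-1 to fat-7, fat-5 and fat-6 passed the test of the difference between backgrounds and the others did not. fat-5, fat-6 and fat-7 make monounsaturated fatty acids, and fat-1 to fat-4 make polyunsaturated ones from them. fat-5 had 19.9 and 26.1 CPM in wild type, 95.8 and 124 in hel-1, 86.5 and 89.8 in daf-2, and 67.2 and 55.6 in hel-1;daf-2. It was higher with the mutation in the wild-type background and lower in the daf-2 background, with no overlap, and the difference was -2.78 ± 0.23 (adjusted p = 0.00565; passed in all 8 fits with 1 library left out). Its exons overlap those of twk-42 on the other strand. fat-6 had 210 and 214, then 358 and 445, 366 and 342, and 335 and 286 CPM, with a difference of -1.11 ± 0.18 (adjusted p = 0.0406; passed in 3 of those 8 fits). fat-7 had 86.8 and 57.4, 308 and 318, 13.02 and 12.5, and 11.9 and 4.80 CPM, and its difference of -2.73 ± 0.48 did not pass (adjusted p = 0.0558). All daf-2 libraries had more fat-5 and fat-6 than wild type, and fat-7 was lower in the daf-2 background than in either genotype of the other. fat-2 had an effect of 0.96 ± 0.16 in the wild-type and 0.00 ± 0.16 in the daf-2 background. The common effects of fat-1 (0.08 ± 0.10), fat-3 (0.06 ± 0.15) and fat-4 (0.08 ± 0.12) were within their errors.

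**Figure D4:**
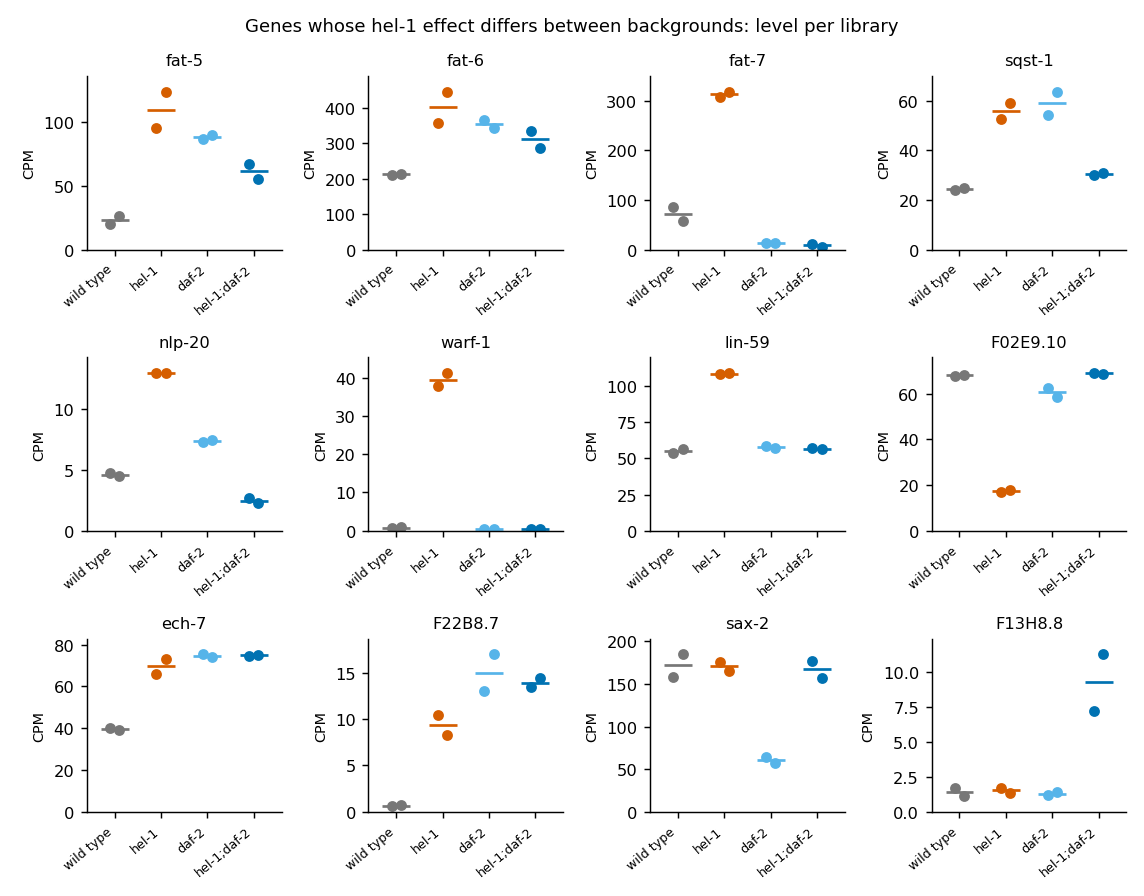
Level in CPM of 12 genes named for a hel-1 effect that was unequal in the 2 backgrounds. Each point is 1 library, each line the mean of 2 libraries, and every vertical axis starts at 0. In sqst-1 and nlp-20 the direction reverses, in lin-59, warf-1 and F02E9.10 the hel-1 strain alone stands apart, in ech-7 and F22B8.7 wild type does, in sax-2 daf-2 does, and in F13H8.8 the double mutant does.

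Because the backgrounds share no library, genes chosen in one could be read in the other. Fitted on its own 4 libraries, the wild-type background passed 184 genes as higher and 29 as lower. Of the 184, 179 could be tested in the 4 libraries of the daf-2 background, where 27 had the same sign and 152 the opposite one. Over all 6366 genes with a positive value in the wild-type background and tested in both fits, 20.9% had the same sign in the daf-2 background. An unadjusted p under 0.05 was reached there by 0 of the 27 and 62 of the 152, where 1.21% of all genes were higher and 8.22% lower at that p. The median log2 fold change went from 1.03 in the background that chose them to -0.43. Of the 29 lower genes, 28 could be tested, and 12 had the same sign and 16 the opposite one, with 4 of each under an unadjusted p of 0.05, beside 21.4% with the same sign over all genes with a negative value in the wild-type background. With a daf-2 library left out, the daf-2 background was read from the fit of genotype means, in which all 184 could be tested. That fit also held the libraries of the wild-type background, so these readings are not from a separate fit. Without daf-2 replicate 2, the higher genes divided into 54 with the same sign and 130 with the opposite sign (median -0.17), beside 36.97% of all genes with the same sign. Without daf-2 replicate 1 they divided into 41 and 143, beside 21.04% of all genes. Fitted on its own 4 libraries the daf-2 background passed 0 genes in either direction by edgeR.

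Gene lists, 44 in all, are described by counts and medians beside those over all tested genes, whose medians were 0.00 for the common effect, 0.02 in the wild-type background and -0.02 in the daf-2 background. No member of any list passed the common effect by edgeR. Collagens of the cuticle had a median of 0.88 in the wild-type and -1.13 in the daf-2 background, and 10 of 133 tested members had the same sign in both. Neuropeptides stood at 0.83 and -1.32 (5 of 80 with the same sign), neuron markers at 0.61 and -1.0 (4 of 32) and body wall muscle markers at 0.20 and -0.55 (1 of 28). Sperm markers stood at 0.25 and -1.22 (3 of 60) and pharynx markers at 0.28 and -2.22 (4 of 14). The same lists separated the 2 daf-2 libraries: in replicate 2 relative to replicate 1, collagens were 1.32 higher, neuropeptides 1.37, neuron markers 1.0, body wall muscle markers 0.69, sperm markers 1.66 and pharynx markers 2.18. Hypodermis markers stood at 0.42 and -0.78 (3 of 26), yet their median difference between the daf-2 libraries was only -0.05. Without daf-2 replicate 2 their daf-2 background median was -0.29. The wild-type background medians of sperm and pharynx markers rested on the wild-type libraries too. For sperm markers the median was 1.56 without wild type replicate 1 and -0.40 without replicate 2, and without replicate 2 the members with the same sign numbered 53 of 60. For pharynx markers it was 0.60 without replicate 1 and -0.07 without replicate 2, with 1 and 7 of 14 of the same sign. The other lists named here kept a positive median. In the same order it was 1.33 and 0.57 for collagens, 0.58 and 0.31 for hypodermis and 0.29 and 0.13 for body wall muscle. It was 0.87 and 0.81 for neuropeptides and 0.59 and 0.60 for neuron markers. Without daf-2 replicate 2 the daf-2 background medians were -0.25 for collagens, -0.13 for neuropeptides, -0.32 for neuron markers, -0.18 for body wall muscle, -0.13 for sperm and -0.21 for pharynx. The part of tissue makeup in these values was not tested.

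DAF-16-activated genes, which are higher when DAF-2 is weak, had a median of 0.40 in the wild-type and -0.58 in the daf-2 background, and 5 of 38 had the same sign in both. Their common median was -0.07, and 3 of 38 members were lower at an unadjusted p under 0.05, against 1.06% of all genes. Those 3 are ttr-44, described above, the ferritin gene ftn-1 and dod-6. ftn-1 had at most 0.19 CPM in the wild-type background, 14.7 and 11.3 CPM in daf-2 and 5.59 and 2.29 CPM in hel-1;daf-2. dod-6 had at most 2.37 CPM in the wild-type background, 83.1 and 165 CPM in daf-2 and 35.8 and 43.8 CPM in hel-1;daf-2. For both genes the libraries did not overlap in the daf-2 background and did overlap in the other, so that the common value came from worms with weak DAF-2. The list had a median difference of 0.48 between daf-2 replicates 2 and 1, and without replicate 2 its daf-2 background median was -0.28 and its common median 0.12. DAF-16-repressed genes had a common median of 0.08, with 4 of 19 of the same sign, near the 21.5% of all genes. Without daf-2 replicate 2 these were 0.31 and 13 of 19. Components of the insulin/IGF-1 pathway stood at -0.08 and 0.09 (5 of 24), and fatty acid synthesis with desaturation at 0.35 and -0.04 (9 of 27).

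**Figure D5:**
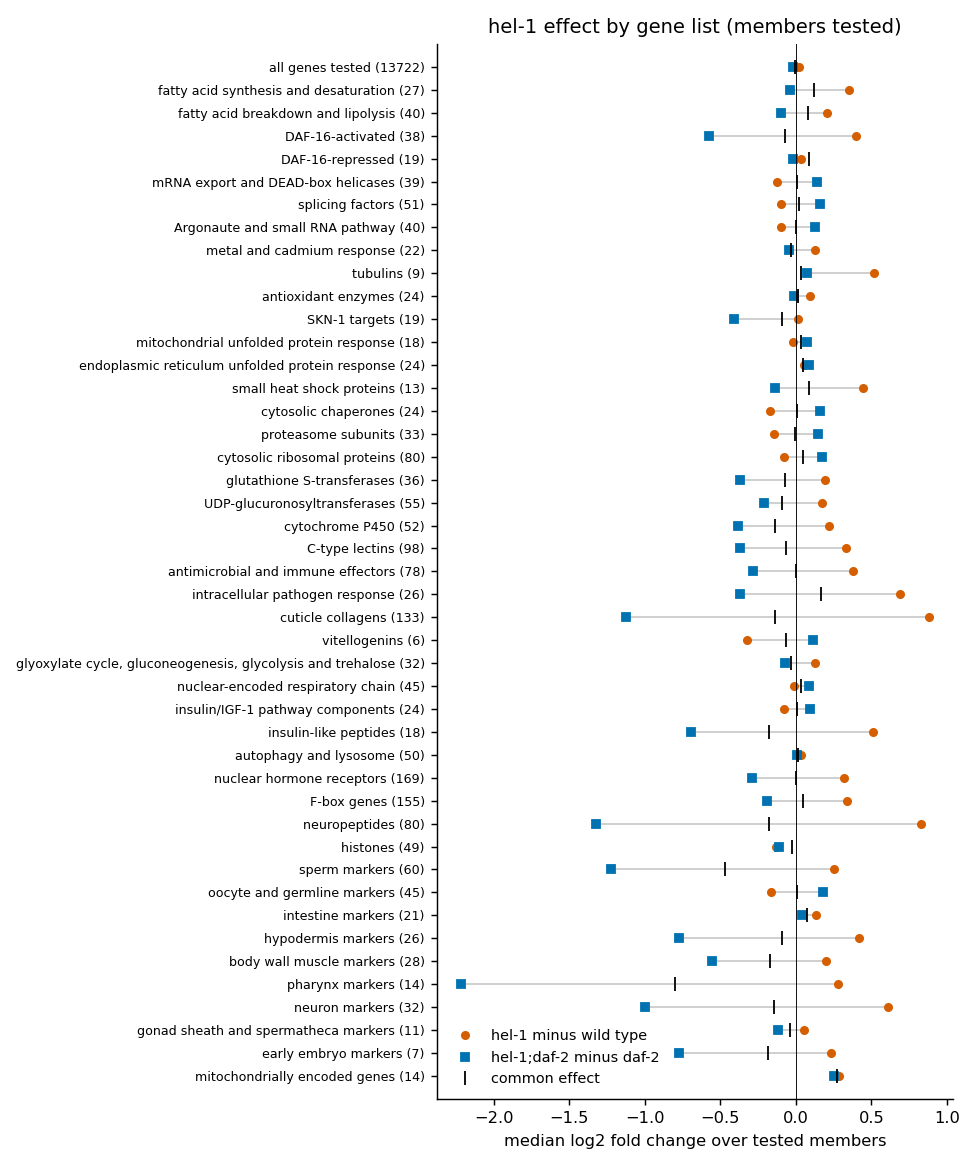
Median log2 fold change over the tested members of each gene list, with their number in brackets, for hel-1 against wild type (circles), for the double mutant against daf-2 (squares) and for the common effect (ticks). The ticks lie near 0 for most lists, with circles and squares on opposite sides, and the widest gaps are those of pharynx markers, neuropeptides and collagens.

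Lists of RNA handling and protein turnover had small medians in the reverse order, below 0 in the wild-type and above 0 in the daf-2 background. mRNA export factors with DEAD-box helicases, the class to which HEL-1 belongs, stood at -0.13 and 0.14, and 0 of 39 had the same sign in both. Proteasome subunits stood at -0.14 and 0.14 (0 of 33), oocyte and germline markers at -0.17 and 0.18 (0 of 45), splicing factors at -0.10 and 0.16 (3 of 51), cytosolic chaperones at -0.17 and 0.16 (2 of 24) and ribosomal proteins at -0.08 and 0.17 (5 of 80). The medians of these 6 lists kept their signs under DESeq2 size factors and upper quartile scaling, the latter giving -0.08 and 0.07 for mRNA export and -0.03 and 0.10 for ribosomal proteins. Without daf-2 replicate 2 the daf-2 background medians shrank to 0.01 for mRNA export, 0.05 for proteasome subunits and 0.06 for oocyte and germline markers. Members with the same sign in both then numbered 19 of 39, 2 of 33 and 5 of 45 in these lists. They numbered 8 of 51 for splicing factors, 10 of 24 for cytosolic chaperones and 26 of 80 for ribosomal proteins, beside 36.97% of all genes. Such values are relative to the rest of the library, in which the tissue lists above had the opposite signs.

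Some members of further lists were higher in both backgrounds, or lower in the case of histones, although most members had opposite signs. Among 24 genes of the unfolded protein response of the endoplasmic reticulum, whose medians were 0.05 and 0.09, 11 had the same sign in both backgrounds. Of the 24, 5 were higher in both without overlap, which compares with 2% of all genes, and 3 of 24 had an unadjusted p under 0.05, which compares with 1.31%. The 5 are folding factors of the endoplasmic reticulum, namely the calreticulin gene crt-1 (0.14 ± 0.07), the BiP chaperone gene hsp-3 (0.17 ± 0.07), the protein disulfide isomerase genes pdi-2 (0.25 ± 0.09) and pdi-6 (0.29 ± 0.10), and the endoplasmin gene enpl-1 (0.15 ± 0.08). pdi-6 had 146 and 171 CPM in wild type, 204 and 235 in hel-1, 133 and 141 in daf-2, and 150 and 147 in hel-1;daf-2. The ranges of pdi-6 did not overlap, and the gap was small in the daf-2 background. pdi-2 stood at 0.42 in the wild-type and 0.07 in the daf-2 background. enpl-1 had 634.8 and 691.35 CPM in wild type and 691.63 and 703.2 in hel-1, so that its ranges nearly touched there. crt-1 and enpl-1 were not among the 3 with an unadjusted p under 0.05. Among 21 intestine markers 8 had the same sign, with medians of 0.14 and 0.04, the latter turning to -0.03 under upper quartile scaling, and 4 were higher at an unadjusted p under 0.05. These were elo-2 (0.28 ± 0.09), a fatty acid elongase gene, lbp-6 (0.34 ± 0.14), which encodes a lipid-binding protein, pgp-1 (0.93 ± 0.40), a P-glycoprotein gene, and pho-1 (0.30 ± 0.09), an acid phosphatase gene, of which only pho-1 did not overlap in either background. Histone genes had medians of -0.13 and -0.11, and 17 of 49 had the same sign. Without daf-2 replicate 1 their daf-2 background median was 0.01 and 11 of 49 had the same sign. Without daf-2 replicate 2 these were -0.07 and 25 of 49. Of the 49, 5 were lower and 0 higher at an unadjusted p under 0.05, beside 1.06% and 1.31% of all genes. In both backgrounds 4 were lower without overlap, beside 1.52% of all genes.

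Genes encoded by mitochondrial DNA, a list added after values were seen, had the highest share with the same sign among the 44 lists (85.7%). Of 14 tested, 12 had the same sign in both backgrounds, with medians of 0.29 and 0.25, and 4 were higher at an unadjusted p under 0.05 (1.31% of all genes). A single daf-2 library decided the shared direction: without daf-2 replicate 1 the median in the daf-2 background was -0.04 and 7 of 14 had the same sign, and without replicate 2 the median was 0.59 and 13 did. COX3 had 789 and 782 CPM in wild type, 887 and 1018 in hel-1, 667 and 1075 in daf-2, and 839 and 1281 in hel-1;daf-2 (0.28 ± 0.18). The libraries of the daf-2 background were far apart within each genotype and overlapped, and in 1 of the 14 genes the libraries did not overlap in either background. The median difference between daf-2 replicates 2 and 1 was 0.56. Nuclear-encoded subunits of the respiratory chain stood at -0.01 and 0.09, and 14 of 45 had the same sign in both. Of the 45, 4 were higher in both without overlap, beside 2% of all genes. However, 0 of 45 were higher at an unadjusted p under 0.05, beside 1.31% of all genes.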

How the data were processed

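RNA was extracted from whole worms and sequenced on a HiSeq platform, per the labels. The deposited values are RSEM expected counts per gene, 1 file per library, per the file headers. Per the submitters' processing notes, RSEM 1.3.1 was used on builds WBcel235 and ce11, along with Bowtie, TopHat2, HTSeq, cutadapt, FastQC and edgeR, with no order given. The aligner behind the counts and the use of strand are not given in the sources used here, so overlapping genes on opposite strands cannot be separated. Genes were named from the WBcel235 annotation (46817 of 46904 identifiers matched).

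Expected counts were rounded to whole numbers (2.02 to 2.79% per library were not whole). Genes were filtered with filterByExpr by genotype, which kept at least 99.9% of each library's counts, and scaled by TMM. The common effect was tested by quasi-likelihood in edgeR 4.0.16 (R 4.3.3), in an additive model of daf-2 and hel-1 (5 residual degrees of freedom). The effect in each background, and the difference between backgrounds (daf-2 background minus wild-type background), came from a fit of 4 genotype means (4 residual degrees of freedom). A gene passed at an adjusted p under 0.05 (Benjamini-Hochberg, over all tested genes). Adjusted p-values are from edgeR unless another tool is named. Standard errors were calculated back from edgeR's test, as the absolute log2 fold change over the square root of the quasi-likelihood F statistic. CPM were computed with TMM-scaled library sizes, and expected counts are not corrected for gene length, so levels are compared within a gene only. The script was tested on simulated data in which every hel-1 effect was equal in both backgrounds. That run therefore does not bear on data in which the effects differ between backgrounds, as here.

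The lists and genes were chosen with earlier results of these data known. The naming rule took hel-1, daf-2, daf-16, fat-1 to fat-7, and genes that passed the common effect. None did, so the other genes were chosen after their values were seen. They are the 12 per direction described in the text, the genes passed by DESeq2, by the fit of genotype means or in 1 background, the neighbours in the 2 chromosome V stretches, and members of lists with an unadjusted p under 0.05 or no overlap in either background. Alternatives were DESeq2 1.42.0, limma 3.58.1 voom, robust estimation, other scalings and filters, a replicate term, each background alone and each library left out.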

Additional observations from a re-analysis of the deposited data

Results flagged for a closer look

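For 18 named genes the hel-1 effect differed between the 2 backgrounds by edgeR's test of the difference itself, given as the log2 effect in the daf-2 background minus that in the wild-type background. Groups of 2 libraries are too small to single out a library as an outlier by a test.

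Positive differences were found in Y102A5C.6 (2.54, adjusted p = 0.0184), Y102A5C.5 (2.31, adjusted p = 0.0262), F02E9.10 (2.16, adjusted p = 0.000171), F13H8.8 (2.70, adjusted p = 0.0415) and sax-2 (1.46, adjusted p = 0.0184). In the Y102A5C genes the mutation went with lower levels in both backgrounds, less so in daf-2. F02E9.10 was low in the hel-1 strain only, F13H8.8 was high in the double mutant only and sax-2 was low in daf-2 only.

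Negative differences with 1 genotype apart were those of Y41C4A.32 (-6.12, adjusted p = 0.0184), warf-1 (-5.91, adjusted p = 0.00137), F22B8.7 (-3.87, adjusted p = 0.00338), fbxa-192 (-1.29, adjusted p = 0.0276), lin-59 (-0.995, adjusted p = 0.00565) and ech-7 (-0.81, adjusted p = 0.0184). C08F11.7 (-4.10, adjusted p = 0.0232) had 10.5 and 5.63 CPM in daf-2 and at most 1.00 CPM elsewhere. saeg-1, which acts downstream of the kinase EGL-4 (-1.58, adjusted p = 0.0184), had 128 and 117 CPM in daf-2 and between 34.8 and 54.9 elsewhere. ctg-1 (-1.01, adjusted p = 0.0184) had 40.4 and 43.3 CPM in daf-2 and between 18.8 and 23.9 elsewhere. The exons of saeg-1 overlap those of C29A12.6, and the exons of ctg-1 those of chd-1, on the other strand.

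Genes with opposite directions were nlp-20 (-3.07, adjusted p = 0.00244), sqst-1 (-2.15, adjusted p = 0.00137), fat-5 (-2.78, adjusted p = 0.00565) and fat-6 (-1.11, adjusted p = 0.0406). The differences of F02E9.10, F22B8.7, warf-1, fat-5, sqst-1 and nlp-20 passed in all 8 fits that left out 1 library. Those of the other 12 passed in 1 (F13H8.8) to 5 (saeg-1) of the 8.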

How the results depend on the processing

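The common effect gave 0 genes higher and 0 lower under every edgeR alternative of the additive model (other scalings, other filters, robust estimation, each library left out) and under limma voom. Exceptions were DESeq2 (2 and 5) and the fit of genotype means (7 and 3). Each background fitted alone measures the effect in that background and not the common effect. Such fits gave 184 and 29 in the wild-type and 0 and 0 in the daf-2 background. Counts within backgrounds moved far more. DESeq2 gave 213 higher and 33 lower in the wild-type background, 13 and 243 in the daf-2 background, and 41 and 578 for the difference, and no filter on low counts gave 321 and 40, 28 and 582, and 74 and 1141. limma voom gave 1 and 2 in the daf-2 background and 2 and 29 for the difference. DESeq2 size factors in edgeR gave 11 lower in the wild-type and 4 higher in the daf-2 background, while upper quartile scaling and a mean of at least 1 CPM each gave 1 and 3 in the daf-2 background. With 1 library left out, genes higher and lower ranged from 6 to 411 and from 3 to 95 in the wild-type background, from 0 to 3050 and from 0 to 2762 in the daf-2 background, and from 1 to 3523 and from 6 to 3141 for the difference. The highest counts of the daf-2 background and the difference came without daf-2 replicate 1 and the highest share with the same sign (36.97%; lowest 19.5%) without daf-2 replicate 2. Where 1 library of a genotype is left, it is assumed to vary like the other genotypes.

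Replicate numbers were not treated as pairs: the deviations of same-numbered libraries correlated at -0.461 to 0.167. With a replicate block the common effect gave 0 and 0, the wild-type background 62 and 10, the daf-2 background 2 and 9, and the difference 11 and 101.

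Of the single-gene values, 805 kept their direction and side of the threshold and 42 newly passed it. The only settings that passed any gene were DESeq2, the fit of genotype means and the wild-type background alone. The last of these does not measure the common effect. Another 25 values changed sign, and none of them could have passed before, since no gene passed the main test. In the daf-2 background alone these were hel-1 (0.0447), daf-16 (-0.0660), fat-1 (-0.0601), fat-2 (-0.0256), fat-3 (-0.308), fat-4 (-0.181), fat-5 (-0.544), fat-6 (-0.208), fat-7 (-0.633), warf-1 (-0.254), ech-7 (-0.0180), lin-59 (-0.0448), F02E9.10 (0.164) and F22B8.7 (-0.133), and in the wild-type background alone sax-2 (-0.00594). These fits measure the effect in 1 background and not the common effect. daf-16 changed sign with upper quartile scaling (-0.00605) and with a mean of at least 1 CPM (-0.00223). With 1 library left out hel-1 ranged from -0.0996 to 0.00011, daf-2 from -0.0565 to 0.00039, daf-16 from -0.0286 to 0.0462, fat-3 from -0.0696 to 0.169 and fat-4 from -0.0386 to 0.176. The causes were not tested. At 31560000 counts or more per library, 1 CPM is over 31 counts, and both counting error and the spread between 2 libraries limit the precision of genes near that level.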
